A study of Mus musculus with 14 samples.

Results

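The 10 genes described here encode proteins that store maternal mRNA in the growing mouse oocyte and hold its translation until it is needed: Cpeb1, Dazl, Ybx2, Zar1, Zar1l, Eif4e1b, Eif4enif1, Lsm14b, Ddx6 and Patl2. They were chosen by name, for their known roles, from the 20337 genes to which the counted RefSeq transcripts could be matched. All 10 were in the count files, and all 10 passed the filter on low counts in every comparison. Each gene is represented by its transcript with the highest mean count over the 14 libraries.

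RNA was sequenced from germinal vesicle-intact oocytes that had reached full size, the stage arrested in prophase of the first meiosis, to ask how loss of the cleavage activity of AGO2 changes the transcriptome and how this compares with loss of AGO2 or of Dicer. The design held 3 libraries each of Ago2 fl/fl, Ago2 ADH, Dicer KO and Dicer WT oocytes and 2 of Ago2 null oocytes, each made from 20 oocytes pooled from 3 mice by the series description, or 3 or 4 by the study's methods. Every female was 4 to 6 weeks old and was primed with equine chorionic gonadotropin (5 IU) and its oocytes were collected 48 h later and stripped of cumulus cells by pipetting. Ago2 fl/fl oocytes, which the labels also call Ago2 wild-type, carried floxed alleles of Ago2, the Argonaute that can cut RNA paired with a small RNA. Ago2 ADH oocytes came from females with 1 floxed allele, 1 knock-in ADH allele in which the catalytic motif is mutated, and a Cre driven by the oocyte-specific Zp3 promoter. They therefore retained a single Ago2 allele, and it was catalytically inactive, although AGO2 made before the Cre acted could persist. Ago2 null oocytes arose in the same crosses through deletion of the floxed gene by Zp3-Cre. Dicer KO oocytes carried an oocyte-specific deletion of Dicer, the enzyme that makes microRNAs and endogenous siRNAs, and Dicer WT oocytes served as their controls. The mice were a mixture of strains, mostly C57BL6. Replicates of a genotype are separate pools, so a p-value measures the spread between pools rather than between single animals.

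A full-grown mouse oocyte no longer transcribes and depends on mRNAs made earlier in growth. Most of these are kept stable with short poly(A) tails, bound by proteins that recognise elements in the 3′ UTR or that occupy the 5′ cap, and are activated by cytoplasmic polyadenylation when meiosis resumes. CPEB1, which binds the U-rich cytoplasmic polyadenylation element, acts first to repress and then to activate such mRNAs, and DAZL works with it. YBX2, also known as MSY2, coats mRNA in bulk and stabilises it. ZAR1 and ZAR1L bind maternal mRNA and are needed for its accumulation. EIF4E1B is an oocyte form of the cap-binding protein and EIF4ENIF1, also known as 4E-T, links cap-bound eIF4E to repressing factors. The helicase DDX6, LSM14B and PATL2 belong to the repressive particles in which such mRNAs are held.

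The cytoplasmic polyadenylation element is the sequence through which CPEB1 acts, so it is shown here for the genes that carry one close to their annotated end. TTTTAT or TTTTAAT was searched for on the sense strand in the last 100 bases of the annotated 3′ UTR (GENCODE, GRCm38). Of the 9 listed genes with a 3′ UTR that long, only Ybx2 had a match, compared with 18.2% of 17485 genes. Of 7 mRNAs known to be controlled by CPEB1 or DAZL, Plat and Btg4 had one. The poly(A) signal AATAAA or ATTAAA was found in the last 40 bases for Plat but not for Ybx2 or Btg4, against 76.9% of the 17485 genes. Ends used in oocytes can differ from the annotated ends, and whether these matches act as elements was not tested. In the following 30-base windows, given 5′ to 3′ on the plus strand, the element is in capitals.
Ybx2 (chr11:69941538-69941567): aagccaTTTTATgaactgtcatgtgccacc
Plat (chr8:22782750-22782779): tttataTTTTAATctattttagtttttact
Btg4 (chr9:51119803-51119832): atccctTTTTATgtctttttaaaagtttga

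Promoter windows from RefSeq (GRCm38.p6, 250 bases before to 50 after an annotated start) were matched for 8 of the 10 genes. No entry was found for Ddx6 or Eif4e1b. Windows are shown for Cpeb1, which was lower in all 3 mutants, and for Patl2, which was higher in both Ago2 mutants. The E-box, CANNTG, which reads the same on both strands and is bound among others by the oocyte transcription factor FIGLA, is in capitals. It occurred in 72.3% of 32851 windows. TATAAA, on either strand, occurred in 13.6% of windows and once in that of Cpeb1, which held 33 CpG dinucleotides against 10 in that of Patl2 and a median of 7 over all windows.
Cpeb1 (chr7:81454709-81455008, minus strand): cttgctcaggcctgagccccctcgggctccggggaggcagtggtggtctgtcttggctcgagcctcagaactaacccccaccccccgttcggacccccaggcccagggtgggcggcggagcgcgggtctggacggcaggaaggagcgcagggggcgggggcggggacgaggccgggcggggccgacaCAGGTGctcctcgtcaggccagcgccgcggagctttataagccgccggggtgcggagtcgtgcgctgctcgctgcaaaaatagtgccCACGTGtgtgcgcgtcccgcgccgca
Patl2 (chr2:122186140-122186439, minus strand): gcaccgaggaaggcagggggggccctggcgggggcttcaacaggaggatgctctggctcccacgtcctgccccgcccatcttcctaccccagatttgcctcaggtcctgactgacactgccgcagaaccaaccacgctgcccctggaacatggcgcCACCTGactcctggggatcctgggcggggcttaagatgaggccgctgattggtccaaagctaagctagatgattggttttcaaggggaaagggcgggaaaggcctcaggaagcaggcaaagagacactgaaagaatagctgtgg

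Total counts, summed over transcripts, ranged from 29380403 to 58285057 per library. A floor of 3 counts thus corresponded to 0.0515 to 0.102 counts per 1000000 of the total count (CPM). Isoforms can have nearly equal counts, as the 3 transcripts of Cpeb1 do, so a total can include a read more than once. The floor covers counting error only, while the 95% intervals of fold changes given below come from the edgeR fits and include the spread between pools. The targeted gene Ago2 had 24.1 to 25.6 CPM in Ago2 fl/fl, 12.4 to 13.8 in Ago2 ADH and 5.27 to 7.18 in Ago2 null libraries. Dicer1 had 745 to 779 CPM in Dicer WT and 1669 to 1928 in Dicer KO libraries. Counts per transcript do not show whether a deleted exon is missing, so Dicer1 is no check of the Dicer labels. The 10 oocyte markers summed to between 9608 and 14932 CPM in every library. Those of cumulus and granulosa cells, 10 genes, summed to 77.3 to 83.6 CPM in Ago2 fl/fl, 61.7 to 69 in Ago2 ADH, 56.7 to 59.8 in Ago2 null, 96 to 104 in Dicer WT and 80.3 to 83.5 in Dicer KO libraries. Most of this sum was Cyp19a1 and Nr5a2. In any group, Kitl averaged at most 5.34 CPM, Has2 1.6, Inha 1.44 and Inhba 0.919. Fshr, Amh, Lhcgr and Foxl2 averaged at most 0.873, 0.154, 0.124 and 0.0859 CPM. Of 4 blood and immune markers, 2 were matched and summed to at most 0.0747 CPM. The part of these differences in the results was not tested. The file names place each Ago2 genotype on a sequencing lane of its own, so lane and Ago2 genotype cannot be told apart.

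The 10 mRNAs differed widely in abundance. Levels are compared between genes as CPM per kilobase (kb) of transcript, with CPM scaled by TMM over all 14 libraries. In Ago2 fl/fl oocytes Zar1 was the most abundant of them, with 870.3 ± 20.4 CPM per kb (SD, n = 3), at rank 28 of 20247 genes. Eif4e1b had 317 ± 7.27 and Cpeb1 313 ± 15.9 CPM per kb (SD, n = 3), and their libraries overlapped. Zar1l followed with 241 ± 5.99 CPM per kb (SD, n = 3), below both in every library. The length used for Zar1l was 895 bases, with a 3′ UTR of 14. Per-length comparisons with Zar1l depend on this annotation, which was not tested. Dazl, at 189 ± 5.58 CPM per kb (SD, n = 3), and Eif4enif1, at 179 ± 5.24 (SD, n = 3), overlapped again. Below them, with no overlap between neighbours, came Lsm14b with 132 ± 4.87, Ybx2 with 56.5 ± 2.95, Patl2 with 17.3 ± 1.28 and Ddx6 with 3.16 ± 0.286 CPM per kb (SD, n = 3 each). The helicase was thus the scarcest of the set, at rank 7278.

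The order of these per-length levels changed little between genotypes. Zar1 was first and Lsm14b, Ybx2, Patl2 and Ddx6 were the last 4, in that order, in all 5 groups. Places moved only in the middle. Cpeb1 lay above Zar1l in Ago2 fl/fl oocytes, overlapped it in Ago2 ADH oocytes, where the mean level was 236 against 249 CPM per kb, and lay below it in Ago2 null oocytes, at 236 against 258. In Dicer WT oocytes Eif4e1b, Cpeb1 and Dazl overlapped in sequence at 249, 238 and 231 CPM per kb, whereas in Dicer KO oocytes Dazl stood above Eif4e1b and Cpeb1, at 258 against 244 and 195. The mean level of Zar1 divided by that of Ddx6 gave 276 for Ago2 fl/fl, 102 for Ago2 ADH, 128 for Ago2 null, 78.6 for Dicer WT and 48 for Dicer KO. The control groups thus differed in this respect as well. They were not tested against each other, since mouse line, sequencing run and genotype cannot be told apart between the Ago2 and Dicer series.

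**Figure D1:**
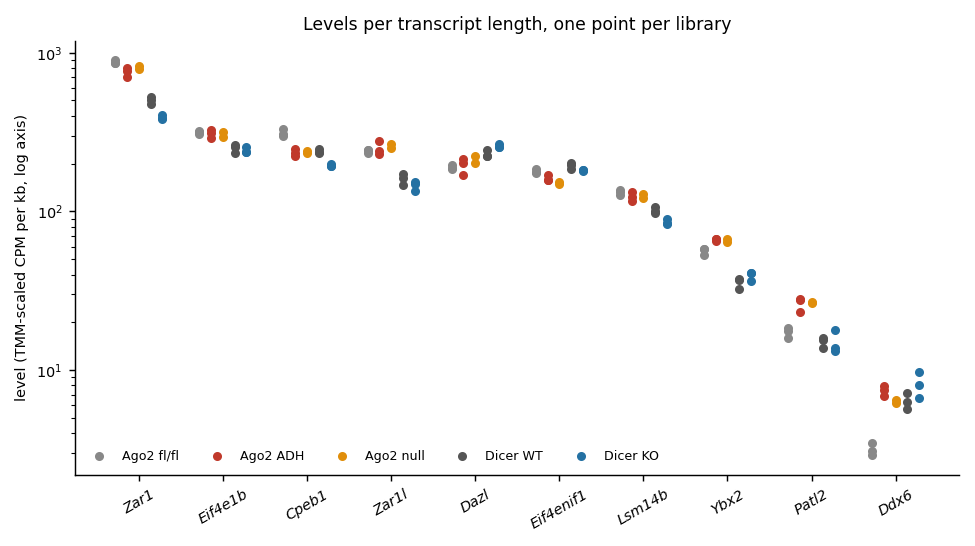
Levels of the 10 genes per transcript length (TMM-scaled CPM per kb, log axis), with 1 point per library and colours for the 5 genotypes. Zar1 lies above all others and Ddx6 below all others in each genotype, and the Ago2 fl/fl libraries hold the lowest Ddx6 levels, from 2.92 to 3.47 CPM per kb.

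Against these levels, some of the 10 mRNAs differed between mutant and control oocytes and others showed no detectable change. Genes were called as changed by the quasi-likelihood test of edgeR at 1% false discovery rate (FDR), with p-values adjusted by Benjamini and Hochberg's method over all transcripts tested. In Ago2 ADH oocytes against Ago2 fl/fl, Ybx2, Ddx6 and Patl2 rose and Cpeb1 fell. This is 3 of 10 higher, where 21% of the 13801 genes tested were higher, and 1 of 10 lower, where 19.8% were lower. In Ago2 null oocytes against Ago2 fl/fl, Dazl joined the genes that rose and Eif4enif1 those that fell, which made 4 higher and 2 lower against 18.6% and 18.7% of 14119 genes. In Dicer KO vs. Dicer WT oocytes, Cpeb1, Zar1 and Lsm14b fell and none of the 10 was called higher, against 17.6% lower and 16.9% higher among 13614 genes. At an unadjusted p under 0.05, the counts were 5, 7 and 5 of the 10, next to 57.7, 55.5 and 52.5% of all genes tested. The median log2 fold changes of the 10 genes were 0.05, 0.06 and -0.06, next to medians of 0.012, 0.010 and 0.000 over all genes tested. Mutant and control libraries did not overlap for 6, 8 and 5 of the 10 genes, where 60.4, 67.2 and 54.9% of all genes tested did not. In pooled oocytes, fewer cells with an mRNA and less of it per cell cannot be told apart. As the Ago2 fl/fl controls serve both Ago2 mutants, these results are not independent of each other.

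Cpeb1 was the one gene of the 10 called in all 3 mutants, each time lower, as were 12.2% of the 13135 genes tested in all 3. Zar1l and Eif4e1b were called in none. Fold changes below come from fits on the libraries of the groups compared, while levels, and overlap of libraries, use scaling over all 14 libraries. With all 5 groups in one fit, log2 fold changes shifted by a median of -0.047 in Ago2 ADH, -0.0309 in Ago2 null and 0.00331 in Dicer KO oocytes. Printed levels of the Ago2 mutants thus lie slightly lower against their controls than the fold changes.

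**Figure D2:**
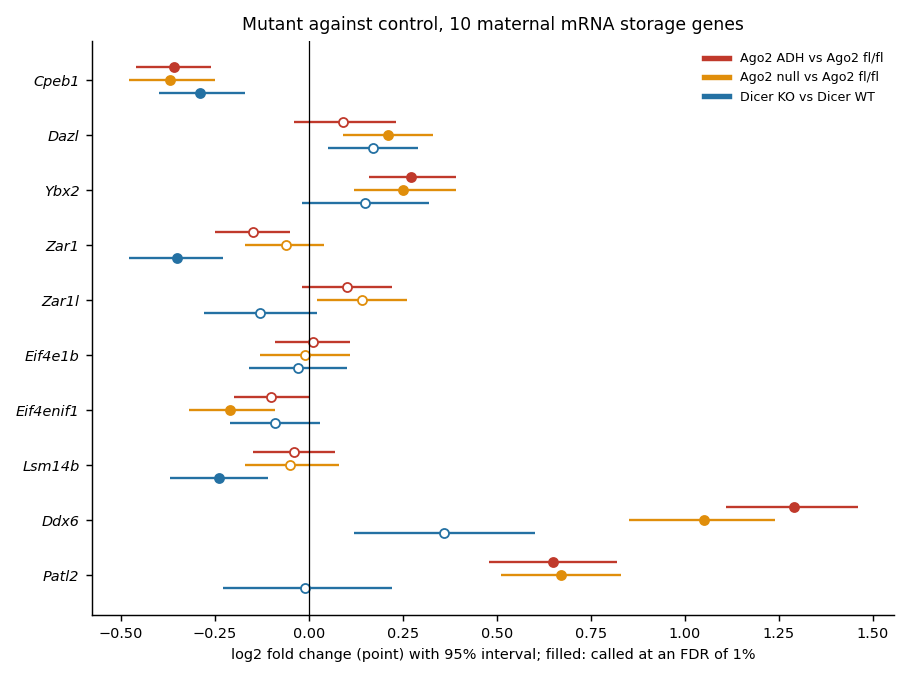
Log2 fold changes (points) with 95% intervals (lines) for the 10 genes in Ago2 ADH vs. Ago2 fl/fl (red), Ago2 null vs. Ago2 fl/fl (orange) and Dicer KO vs. Dicer WT oocytes (blue), filled where called at an FDR of 1%. Cpeb1 lies left of 0 in all 3, at -0.36, -0.37 and -0.29, and Ddx6 reaches 1.29 and 1.05 in the Ago2 mutants against 0.36 in Dicer KO oocytes.

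Among the regulators that bind the 3′ UTR, Cpeb1 (GRCm38 chr7:81347026-81458001) had levels of 1029.7, 959 and 934 CPM in Ago2 fl/fl, 697, 774 and 729 in Ago2 ADH and 723 and 746 in Ago2 null oocytes. Every mutant library lay below every control. On the log2 scale Cpeb1 was lower by 0.36 (standard error 0.0478) in Ago2 ADH oocytes, or 22.2%, with an adjusted p of 3.91e-06 by edgeR. In Ago2 null oocytes it was lower by 0.37 (standard error 0.055), with an adjusted p of 3.63e-05 by edgeR. In the Dicer series, Cpeb1 had 733, 765 and 724 CPM in WT and 622, 597 and 597 in KO libraries, again without overlap. The log2 level fell by 0.29 in Dicer KO oocytes (standard error 0.0565, adjusted p = 0.000397 by the same edgeR test). The 3 annotated transcripts of Cpeb1 have nearly equal mean counts, between 99.4 and 100% of the highest, so the values do not distinguish its isoforms.

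Dazl (chr17:50279393-50293620), which recruits poly(A)-binding protein to the mRNAs it binds, had 580.3, 556 and 549 CPM in Ago2 fl/fl, 597, 507 and 633 in Ago2 ADH and 602 and 663 in Ago2 null libraries. The Ago2 ADH libraries spanned a wider range than the controls and overlapped them, whereas both Ago2 null libraries lay above. For Ago2 ADH the log2 fold change was 0.09 ± 0.0647 (standard error) with an adjusted p of 0.243 by edgeR, and for Ago2 null the level rose by 0.21 ± 0.0567 (standard error) with an adjusted p of 0.00529 by edgeR. Ago2 ADH replicate 2 was the low library, and without it the log2 fold change was 0.19 (adjusted p = 0.00343 by edgeR). The Ago2 null call was lost without null replicate 2, at 0.14 (adjusted p = 0.081 by edgeR), and without Ago2 fl/fl replicate 2 or 3, with adjusted p = 0.031 and 0.0287 by edgeR. In the Dicer series, 724, 668 and 670 CPM in WT compared with 787, 759 and 759.9 in KO libraries. All KO libraries were higher, yet the log2 fold change of 0.17 (95% interval 0.05 to 0.29, adjusted p = 0.0242 by edgeR) did not pass the threshold.

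Ybx2 (chr11:69935805-69941604) encodes the mRNA-coating protein, and its own annotated 3′ UTR holds the match shown above. It had 97.6, 97.1 and 88.8 CPM in Ago2 fl/fl, 111, 111 and 109 in Ago2 ADH and 108 and 111 in Ago2 null libraries. The Ago2 mutant libraries were close to one another and all above the controls. On the log2 scale Ybx2 rose by 0.27 ± 0.054 (standard error) in Ago2 ADH, with an adjusted p of 0.000312 by edgeR, and by 0.25 ± 0.0647 (standard error) in Ago2 null oocytes, with an adjusted p of 0.00373 by edgeR. The Ago2 null call was lost without null replicate 2 or Ago2 fl/fl replicate 3, with adjusted p = 0.0246 and 0.0216 by edgeR. In Dicer WT libraries Ybx2 had 61.6, 62.9 and 53.9 CPM and in Dicer KO libraries 68.6, 60.6 and 68.3. These overlapped, and the log2 fold change of 0.15 (95% interval -0.02 to 0.32) was not called.

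Zar1 (chr5:72577113-72581361), required for the oocyte-to-embryo transition, had 1277, 1229 and 1225 CPM in Ago2 fl/fl, 1095, 1149 and 1006 in Ago2 ADH and 1136 and 1183 in Ago2 null libraries. All Ago2 mutant libraries were below all controls. The Ago2 ADH log2 fold change of -0.15 (standard error 0.0464) had an adjusted p of 0.0100026 by edgeR, just above the threshold, and it passed with Ago2 ADH replicate 2 left out (adjusted p = 0.00263 by edgeR) and under several other settings. In Ago2 null oocytes the log2 fold change was -0.06 (95% interval -0.17 to 0.04). In Dicer WT libraries Zar1 had 718, 751 and 683 CPM, and in Dicer KO libraries 542, 555 and 579. These did not overlap, and the level fell by 0.35 on the log2 scale, or 21.8% (standard error 0.0589, adjusted p = 6.98e-05 by edgeR).

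Its paralog Zar1l (chr5:150507055-150518194) had 218, 219 and 209 CPM in Ago2 fl/fl, 214, 248 and 206 in Ago2 ADH and 224 and 237 in Ago2 null libraries. Ago2 ADH libraries lay on both sides of the controls and Ago2 null libraries above them. The log2 fold changes of 0.10 and 0.14 were not called (95% intervals -0.02 to 0.22 and 0.02 to 0.26). In the Dicer series, 145, 153 and 132 CPM in WT and 138, 132 and 121 in KO libraries overlapped, with a log2 fold change of -0.13 (95% interval -0.28 to 0.02). As a share of the summed per-length level of Zar1 and Zar1l, Zar1 made up 77.9 to 78.6% in Ago2 fl/fl, 74.4 to 76.2% in Ago2 ADH and 75.7 to 76% in Ago2 null libraries, and 75.4 to 76.4% in Dicer WT and 71.1 to 75.1% in Dicer KO libraries. The share was lower in every mutant library than in any library of its own control group.

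**Figure D3:**
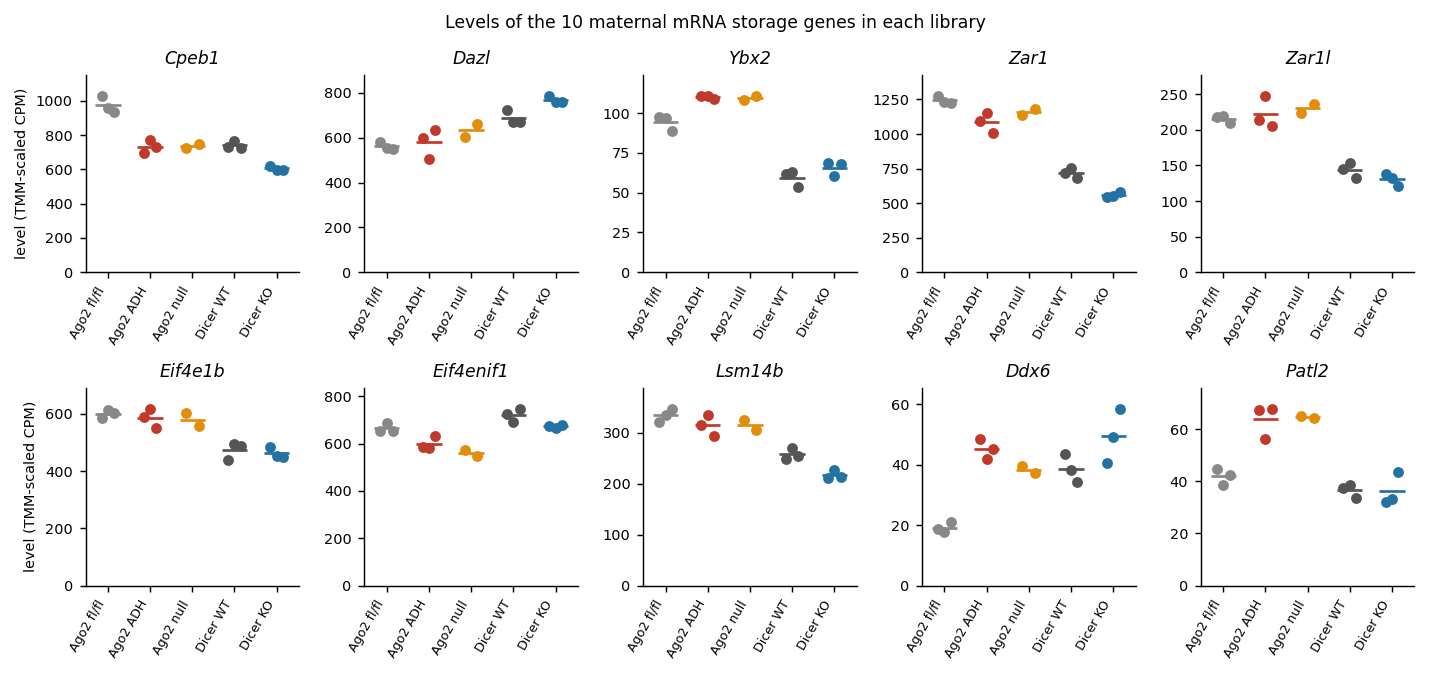
Level (TMM-scaled CPM, axes from 0) of each of the 10 genes in every library, with 1 point per library and a line at the group mean. Cpeb1 is lower in every mutant library than in its controls, and Ddx6 and Patl2 are higher in every Ago2 ADH and Ago2 null library than in Ago2 fl/fl, while Dicer WT and KO libraries overlap for both.

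Of the cap-associated genes, Eif4e1b (chr13:54783994-54788459) was called in no comparison. It had 586, 613 and 603 CPM in Ago2 fl/fl, 589, 617 and 551 in Ago2 ADH, 603 and 557 in Ago2 null, 439, 494 and 486 in Dicer WT and 483, 452 and 450.5 in Dicer KO libraries. Mutant and control libraries overlapped each time. The log2 fold changes were 0.01, -0.01 and -0.03, with 95% intervals of -0.09 to 0.11, -0.13 to 0.11 and -0.16 to 0.10, so that changes of the size seen for Cpeb1 lie outside them. A second annotated transcript, with 21.9% of the counts of the first, gave log2 fold changes of -0.13, -0.25 and -0.12, none of them called. The value of -0.25, in Ago2 null oocytes, had a standard error of 0.0858 and an adjusted p of 0.0241 by edgeR.

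Eif4enif1 (chr11:3202343-3244588), which ties eIF4E to translational repression and whose loss disrupts mRNA storage, had 651, 687 and 655 CPM in Ago2 fl/fl, 587, 582 and 631 in Ago2 ADH and 572 and 548 in Ago2 null libraries. All mutant libraries were lower than all controls. For Ago2 ADH the log2 fold change of -0.10, with a standard error of 0.0482 and an adjusted p of 0.0924 by edgeR, was not called, and the level fell by 0.21 in Ago2 null oocytes, or 13.4% (standard error 0.0539, adjusted p = 0.0044 by edgeR). The Ago2 null call was lost without Ago2 fl/fl replicate 2, Ago2 fl/fl replicate 3 or null replicate 2, with adjusted p from 0.0184 to 0.0581 by edgeR. Dicer WT libraries had 724, 690.2 and 746 CPM and Dicer KO libraries 674, 667 and 678. The KO libraries were again lower without overlap, but the log2 fold change of -0.09 (95% interval -0.21 to 0.03) was not called.

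Of the granule components, Ddx6 (chr9:44602983-44640731), the RNA helicase at the centre of repressive particles, changed most. It had 18.7, 17.7 and 21.1 CPM in Ago2 fl/fl, 48.4, 41.8 and 45.1 in Ago2 ADH and 39.5 and 37.4 in Ago2 null libraries. The lowest mutant library was well above the highest control. The level rose 2.44-fold in Ago2 ADH oocytes, by 1.29 on the log2 scale (standard error 0.0853, adjusted p = 3.33e-10 by edgeR's quasi-likelihood test), and 2.07-fold in Ago2 null oocytes, by 1.05 (standard error 0.0918, adjusted p = 8.04e-08 by the same edgeR test). When single libraries were omitted, the log2 fold changes stayed between 1.22 and 1.36 and between 1.00 and 1.13. Among all genes tested, these changes stood at the percentiles 91.4 and 88. In the Dicer series, Ddx6 had 43.5, 38.3 and 34.4 CPM in WT and 40.6, 49.1 and 58.5 in KO libraries. These overlapped, and the log2 fold change of 0.36 (95% interval 0.12 to 0.60, adjusted p = 0.0142 by edgeR) was not called. It was called without KO replicate 1, the lowest of the KO libraries, at 0.48 (adjusted p = 0.000726 by edgeR), or without WT replicate 1, at 0.45 (adjusted p = 0.0072 by edgeR), and it was 0.22 without KO replicate 3 (adjusted p = 0.116 by edgeR). The Dicer WT level of 38.7 ± 4.53 CPM (SD, n = 3) was close to the Ago2 null level of 38.5 ± 1.51 (SD, n = 2) and above the 17.7 to 21.1 CPM of Ago2 fl/fl libraries.

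Patl2 (chr2:122120108-122186189), an oocyte RNA-binding protein of the same particles whose loss causes oocyte maturation defects, had 44.9, 38.7 and 42.5 CPM in Ago2 fl/fl, 67.3, 56.4 and 67.8 in Ago2 ADH and 65.3 and 64.5 in Ago2 null libraries. No mutant library overlapped a control. The level rose 1.57-fold in Ago2 ADH oocytes, by 0.65 on the log2 scale (standard error 0.0796, adjusted p = 1.49e-06 by edgeR), and 1.59-fold in Ago2 null oocytes, by 0.67 (standard error 0.0755, adjusted p = 1.74e-06 by edgeR). In Dicer WT libraries it had 37.4, 38.8 and 33.6 CPM, and in Dicer KO libraries 32.1, 33.3 and 43.5. Here KO replicate 3 was above all WT libraries and the other KO libraries below them. The log2 fold change was -0.01 (95% interval -0.23 to 0.22), and -0.16 without KO replicate 3. Patl2 made up 62 to 65.3% of the summed per-length level of Patl2 and Patl1, its somatic counterpart, in Ago2 fl/fl, 71 to 77.2% in Ago2 ADH and 76.8 to 77% in Ago2 null libraries. The share was 54.9 to 61.1% in Dicer WT and 53.8 to 64.6% in Dicer KO libraries, which overlapped.

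Lsm14b (chr2:180024900-180035466), an oocyte Sm-like protein that binds stored mRNA, had 322, 336 and 347 CPM in Ago2 fl/fl, 315, 336 and 293 in Ago2 ADH and 325 and 306 in Ago2 null libraries. The groups overlapped, with log2 fold changes of -0.04 and -0.05 (95% intervals -0.15 to 0.07 and -0.17 to 0.08). Dicer WT libraries had 249, 269.7 and 255 CPM and Dicer KO libraries 212, 228 and 213. There was no overlap, and the level fell by 0.24 on the log2 scale, or 15.3% (standard error 0.0603, adjusted p = 0.00315 by edgeR). The call was lost without WT replicate 2, KO replicate 1 or KO replicate 3, with adjusted p from 0.0101 to 0.0155 by edgeR. Its paralog Lsm14a, the general form, fell by 0.27 and 0.29 in Ago2 ADH and Ago2 null oocytes (adjusted p = 8.68e-05 and 0.00027 by edgeR). In Dicer KO oocytes the log2 fold change of Lsm14a, -0.15, was not called. Of the summed per-length level of Lsm14a and Lsm14b, Lsm14b averaged 49.5% in Ago2 fl/fl and 31.5% in Dicer WT libraries.

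Whether the change of a gene differed between an Ago2 mutant and Dicer KO oocytes was tested as the difference between the mutant effects. Each effect was taken against its own controls. For Ago2 ADH, 2 of the 10 genes differed, against 3.74% of 14341 genes. The log2 effect on Ddx6 was higher by 0.87 than in Dicer KO oocytes (standard error 0.154, adjusted p = 0.000763 by edgeR's quasi-likelihood test), and it was called whichever library was left out. The effect on Patl2 was higher by 0.60 (standard error 0.143, adjusted p = 0.0093 by the same edgeR test). For Ago2 null, 1 of the 10 differed, against 3.08% of 14644 genes. This was Patl2, by 0.64 (standard error 0.144, adjusted p = 0.00835 by edgeR). The differences for Ddx6, 0.66 (adjusted p = 0.0161 by edgeR), and Zar1, 0.26 (adjusted p = 0.0447 by edgeR), did not pass. That of Ddx6 passed without Dicer WT replicate 3, at 0.73 (adjusted p = 0.00933 by edgeR), or without Dicer KO replicate 3, at 0.80 (adjusted p = 0.00176 by edgeR). The Patl2 calls were lost without most single libraries. The Ago2 ADH call held only without Ago2 ADH replicate 2, Dicer WT replicate 3 or Dicer KO replicate 3, and the Ago2 null call only without either of the latter. When single libraries were omitted, the difference stayed between 0.52 and 0.76 for Ago2 ADH and between 0.56 and 0.79 for Ago2 null, but the adjusted p rose to 0.0365 and 0.0359 by edgeR at most. The differences for the other genes were between -0.15 and 0.24 and none was called. As Dicer WT and Ago2 fl/fl oocytes already differed in their Ddx6 level, the same difference in fold does not stand for the same difference in CPM.

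Ago2 ADH and Ago2 null oocytes were not distinguished by any of the 10 genes by edgeR's quasi-likelihood test. Among 14180 genes, 0.0705% were higher and 0.0494% lower in Ago2 ADH. At an unadjusted p under 0.05 there was 1 gene of the 10, where 10.1% of all genes passed. It was Ddx6, whose log2 difference was 0.22 (95% interval 0.03 to 0.41, adjusted p = 0.41 by edgeR). Libraries of the 2 genotypes did not overlap for 2 of the 10 genes, where 25.9% of all genes tested did not. These were Ddx6 and Eif4enif1, both higher in every Ago2 ADH library. The 95% intervals for the 10 genes reached from -0.31 for Dazl to 0.41 for Ddx6. None of the 10 was called by DESeq2 either.

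**Figure D4:**
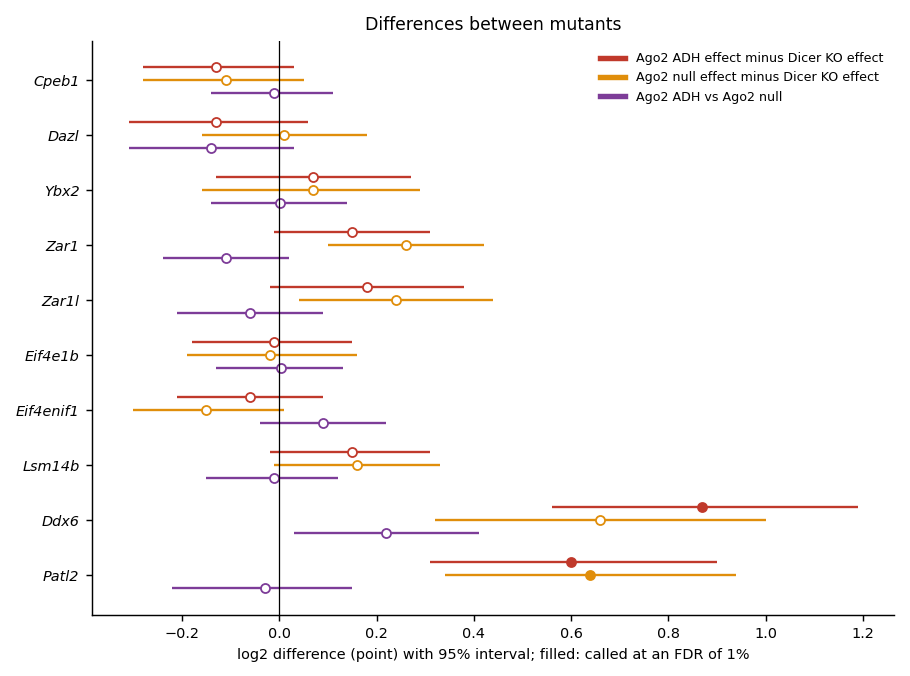
Differences on the log2 scale (points) with 95% intervals (lines) for the 10 genes: the Ago2 ADH effect minus the Dicer KO effect (red), the Ago2 null effect minus the Dicer KO effect (orange) and Ago2 ADH vs. Ago2 null (purple), filled where called at an FDR of 1%. Ddx6, at 0.87 and 0.66, and Patl2, at 0.60 and 0.64, lie furthest to the right, and no purple point is filled.

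The 10 genes were set beside 45 others of mRNA storage and translation control, in 6 lists chosen by function. Of these 45, 4 were higher and 8 lower in all 3 mutants, and 20 were called in none. In the genome-wide background, 11.2% of the 13135 genes tested in all 3 were higher and 12.2% lower in all 3. Among 13 genes of the CPEB family and the polyadenylation machinery, Cpeb2 and Pabpc1 rose and Cpeb4 and Pabpn1l fell in all 3 mutants. Cpeb2 rose by 0.55, 0.61 and 0.89 on the log2 scale in Ago2 ADH, Ago2 null and Dicer KO oocytes, and Cpeb4 fell by 0.60, 0.53 and 0.34. Pabpc1, the somatic poly(A)-binding protein, rose by 1.35, 1.10 and 0.56. Pabpn1l, an oocyte poly(A)-binding protein, fell by 1.06, 1.18 and 1.24. In all, 2 of the 13 were higher and 2 lower in each Ago2 mutant, and 3 were higher and 2 lower in Dicer KO oocytes. For these and the following lists, the shares of all genes tested were 21, 18.6 and 16.9% higher and 19.8, 18.7 and 17.6% lower in Ago2 ADH, Ago2 null and Dicer KO, and the counts of this list lay near or below them. Cpeb3, with log2 fold changes of -0.11, -0.12 and -0.07, was called in none. Cpeb1 nevertheless remained the main form of its family, with 88.7 to 90.8% of the summed per-length level of Cpeb1 to Cpeb4 over the Ago2 libraries and 84.6 to 86.6% over the Dicer libraries.

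Of the cap-binding genes, Eif4e3 fell by 0.55, 0.61 and 0.68 on the log2 scale in the 3 mutants, in the same order. In each mutant 1 of the 6 genes was higher and 1 lower, near the shares of all genes (16.9 to 21% higher and 17.6 to 19.8% lower). The higher gene was Eif4ebp1 in Ago2 ADH and Ago2 null oocytes, by 1.39 and 1.48, and Eif4e in Dicer KO oocytes. There Eif4ebp1 had a log2 fold change of 1.01, which was not called. Eif4e2, with log2 fold changes of 0.14, -0.14 and 0.01, was called in none. Eif4e, the general cap-binding protein and paralog of Eif4e1b, rose by 0.26 in Dicer KO oocytes and had log2 fold changes of 0.08 and 0.13 in the Ago2 mutants, which were not called. The difference between its effects was not called either, at -0.23 for Ago2 ADH and -0.16 for Ago2 null against Dicer KO oocytes. Of the cold-shock genes, paralogs of Ybx2, Ybx1 rose by 0.31 in Ago2 ADH and by 0.25 in Dicer KO oocytes, with a log2 fold change of 0.15 in Ago2 null oocytes. Ybx3, with log2 fold changes of -0.08, -0.10 and -0.07, was called in none. Of the summed per-length level of Ybx1, Ybx2 and Ybx3, Ybx2 averaged only 13.8% in Ago2 fl/fl and 10.2% in Dicer WT libraries. Of the further granule genes, Edc4, a decapping scaffold, fell by 0.28, 0.45 and 0.45. Patl1, with log2 fold changes of -0.11, -0.24 and -0.06, was called in none.

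Among 12 other RNA-binding regulators, 2 of which, Boll and Msi1, were too low to test in the mutant-control comparisons, 3, 1 and 2 were higher and 3, 3 and 4 lower in Ago2 ADH, Ago2 null and Dicer KO oocytes, against 21, 18.6 and 16.9% of all genes higher and 19.8, 18.7 and 17.6% lower. Musashi proteins act with CPEB1 on maternal mRNAs. Msi2 had 23.8 to 27.2 CPM in Ago2 fl/fl, 8.19 to 12.1 in Ago2 ADH and 7.01 to 7.09 in Ago2 null libraries, and 27.4 to 33.4 in Dicer WT and 10.4 to 10.6 in Dicer KO libraries. It fell by 1.37, 1.84 and 1.53 on the log2 scale (adjusted p = 1.55e-08, 5.75e-10 and 1.51e-09 by edgeR). Zfp36l2, which promotes decay of AU-rich mRNAs in oocytes, rose by 1.38, 1.21 and 1.14. Igf2bp2 fell by 0.21, 0.26 and 0.26.

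Of the 7 mRNAs controlled by CPEB1 or DAZL, Mos and Btg4 fell and Tex19.1 rose in all 3 mutants. Mos, the kinase that maintains arrest in metaphase II, had 197 to 217 CPM in Ago2 fl/fl, 116 to 119 in Ago2 ADH and 97.8 to 108 in Ago2 null libraries, and fell by 0.78 and 0.98 on the log2 scale. In Dicer KO oocytes it fell by 0.69. Btg4, which directs maternal mRNA decay and holds a match shown above, fell by 0.26, 0.26 and 0.31. Plat, encoding tissue plasminogen activator and named here for its match, fell by 0.22 and 0.37 in the Ago2 mutants. Its log2 fold change in Dicer KO oocytes was -0.13. Tex19.1, a DAZL target, rose by 0.81, 0.81 and 0.87. In all, 1 of the 7 was higher in each mutant, and 4, 3 and 2 were lower, against 19.8, 18.7 and 17.6% of all genes lower and 21, 18.6 and 16.9% higher. These values are mRNA levels, and neither poly(A) tail length nor translation was measured.

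**Figure D5:**
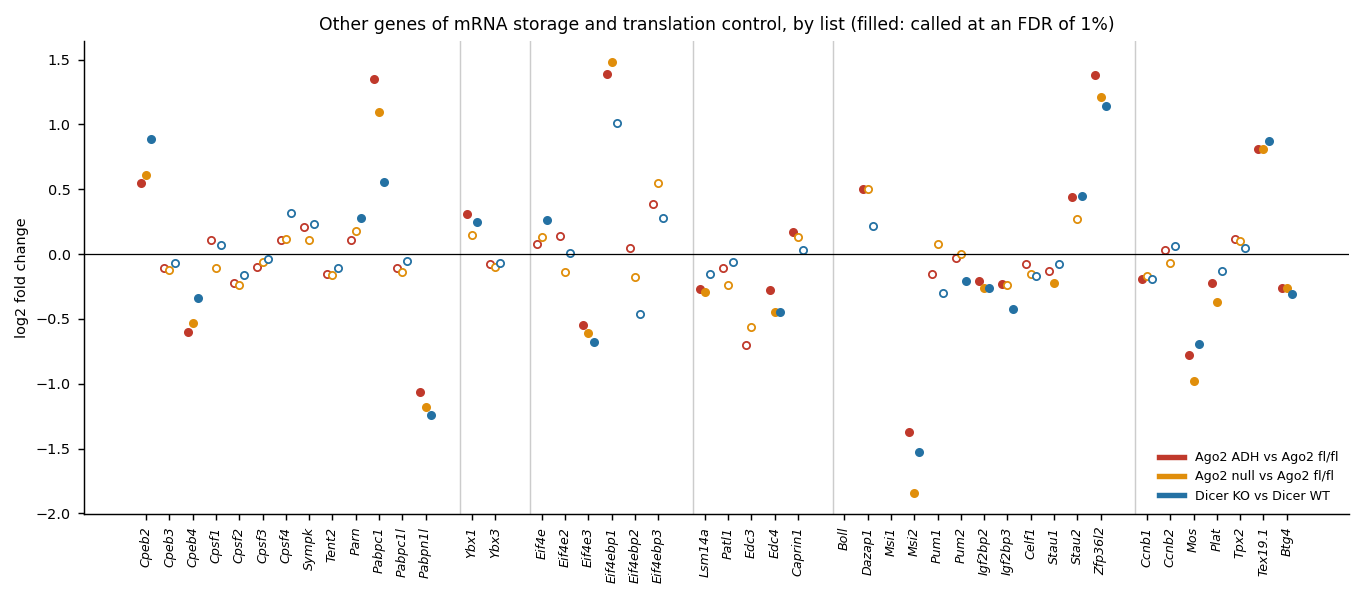
Log2 fold changes of the other genes of mRNA storage and translation control, grouped by list and separated by grey lines, in Ago2 ADH vs. Ago2 fl/fl (red), Ago2 null vs. Ago2 fl/fl (orange) and Dicer KO vs. Dicer WT (blue), filled where called at an FDR of 1%. Genes not tested have no point. In Ago2 ADH oocytes Msi2 and Pabpn1l lie lowest, at -1.37 and -1.06, and Eif4ebp1, Zfp36l2 and Pabpc1 highest, at 1.39, 1.38 and 1.35.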

How the data were processed

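Reads from Nugen Ovation-amplified RNA were aligned to the mouse genome (mm10) with TopHat2 (version 2.0.7 per the submitters' processing notes), and the authors deposited raw counts per RefSeq transcript from HTSeq (0.6.1), counted without regard to strand. No molecular identifiers are stated, so amplified copies count as separate reads. The 5 tally lines of each file, which held 34 to 65% of its records, were left out, so that multiply aligned reads do not enter the counts. Of 26495 transcripts, 26081 were matched to symbols through RefSeq and 113 through GENCODE, and 301 were not matched. Gene coordinates are from RefSeq (GRCm38.p6). Lengths for CPM per kb are those of GENCODE transcripts, which can differ from those of the RefSeq transcripts counted.

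Each comparison was fitted on all transcripts of its groups with edgeR (4.0.16, R 4.3.3): filterByExpr (minimum count 10, minimum total 15), TMM and the quasi-likelihood test with Benjamini-Hochberg adjustment, called at an FDR of 1%. Groups follow the sample labels. Alternatives were DESeq2 (1.42.0), RLE normalization, other filters on low counts, 1 transcript per gene, all 5 groups in one fit, an FDR of 5%, a replicate block and leaving out each library. Total counts ranged from 29380403 to 58285057 per library, and replicates differed by 6.35 to 14.3 times counting noise (chi-square per degree of freedom). The fits were tested on simulated data. Tables were joined with pandas 2.3.3 and numpy 2.4.6 (Python 3.11.15).

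The 10 genes and all gene lists were chosen with earlier results of these data known. By rule, each of the 10 genes is named, and of the 45 other storage and translation genes, those called in all 3 mutants or paralogous to one of the 10 are named with values if tested. Btg4 and Plat are also named for their match to the polyadenylation element, and Eif4ebp1 as the highest of the 45 in Ago2 ADH oocytes.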

Additional observations from a re-analysis of the deposited data

Results flagged for a closer look

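The effect on Ddx6 differed between Ago2 ADH and Dicer KO oocytes by 0.87 on the log2 scale, by a test of the difference itself. The effect on Patl2 differed by 0.60 for Ago2 ADH and by 0.64 for Ago2 null oocytes, each against Dicer KO oocytes. These Patl2 calls were lost without most single libraries. They were also lost with the replicate block (adjusted p = 0.0111 and 0.0412 by edgeR).

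A signal was also present in the tally lines, which the comparisons do not use. Alignments tallied as not unique were divided by the total count of each library. The ratio averaged 0.572 ± 0.0213 (SD, n = 3) in Ago2 fl/fl, 1.61 in Ago2 ADH and 1.61 in Ago2 null libraries. It averaged 0.458 ± 0.0747 (SD, n = 3) in Dicer WT and 1.03 in Dicer KO libraries. Every mutant library was above every control. The part of these reads in the levels of the 10 genes was not tested.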

How the results depend on the processing

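The calls of Cpeb1 in all 3 mutants, of Ddx6 and Patl2 in both Ago2 mutants, of Ybx2 in Ago2 ADH and of Zar1 in Dicer KO oocytes, and the Ddx6 difference between Ago2 ADH and Dicer KO, held under every alternative run. The number of the 10 genes called lower in Ago2 ADH was 2, with Zar1, at an FDR of 5%, with DESeq2, RLE normalization, no filter, 1 transcript per gene or all 5 groups in one fit, and 1 to 2 with a library left out. The number called higher in Ago2 null was 2 with all 5 groups in one fit and 2 to 4 with a library left out, and the number lower was 1 with at least 10 counts in every library and 1 to 2 with a library left out. In Dicer KO the number called higher was 2 at an FDR of 5%, 2 with DESeq2, 1 without a filter, 1 with all 5 groups and 0 to 1 with a library left out. Differences from Dicer KO were called for 1 to 2 genes (Ago2 ADH) and 0 to 2 genes (Ago2 null) with a library left out, and for Ago2 null for 3 at an FDR of 5%, 3 with DESeq2 and 2 without a filter. The cause of these changes was not tested.

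Same-numbered replicates showed no shared deviation over the transcripts tested, with correlations from -0.0866 to 0.0438. This cannot show whether they were collected together, and the replicate block was run as an alternative. With the replicate block, 3 genes were higher and 1 lower in Ago2 ADH, 2 and 1 in Ago2 null, and 0 and 3 in Dicer KO. The difference from Dicer KO was called for 1 gene in Ago2 ADH and 0 in Ago2 null, and 0 differed between Ago2 ADH and Ago2 null. Under this block the log2 difference between Ago2 ADH and Ago2 null turned to 0.0292 for Lsm14b, and that of the Ago2 null and Dicer KO effects to -0.00637 for Dazl.

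Results that turned direction were all uncalled. Eif4e1b gave -0.000802 without a filter and -0.0371 with all 5 groups in Ago2 ADH, and 0.0114 with at least 10 counts in every library in Ago2 null. Its difference from Dicer KO was 0.0169 with DESeq2 and 0.0169 with RLE for Ago2 ADH, and 0.0018 and 0.00178 for Ago2 null. Patl2 in Dicer KO gave 0.00122 with DESeq2, 0.00169 with RLE and 0.00309 with at least 10 counts in every library. With a library left out, Eif4e1b spanned -0.0216 to 0.0413 in Ago2 ADH, -0.0645 to 0.0404 in Ago2 null, -0.0519 to 0.0644 between these, and -0.0512 to 0.0362 and -0.0719 to 0.0377 in the differences of Ago2 ADH and Ago2 null from Dicer KO. Patl2 spanned -0.157 to 0.0751 in Dicer KO. Between Ago2 ADH and Ago2 null, Patl2 spanned -0.0848 to 0.0561, Cpeb1 -0.0454 to 0.0237, Ybx2 -0.0183 to 0.0266 and Lsm14b -0.0549 to 0.0329, and the difference of Ago2 null from Dicer KO spanned -0.063 to 0.0836 for Dazl. With 2 Ago2 null libraries, leaving 1 out assumes that the other varies like the rest. The levels of the 10 genes were all far above the floor of 3 counts. The part of sequencing depth in the calls was not tested.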
